A study of Mus musculus with 4 samples.

Results

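The genes described here are 43 mouse genes of DNA replication and cell division, 19 of S phase and 24 of G2 and M phase. They were taken by symbol from a fixed list, and all 43 were found among the 27998 features of the series. Their levels were followed in bone marrow cells of 4 single-cell libraries, a pair from Idh1-WT and a pair from Idh1-R132H recipients, after the cells had been sorted by marker genes into 14 groups. Idh1 encodes the cytosolic isocitrate dehydrogenase, and the R132H form of the enzyme makes 2-hydroxyglutarate.

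In every mouse the EYFP reporter had been recombined by tamoxifen given over 5 days, and in the Idh1-R132H mice so had 1 mutant Idh1 allele. EYFP-positive, lineage-negative marrow was collected 2 weeks later and transplanted into irradiated recipients without support marrow, and marrow was taken 16 weeks after transplantation. From each recipient, 4000 cells each of 3 EYFP-positive populations (CD45.1-positive total cells, Lin-Sca1+cKit+ cells and Lin-cKit+ cells) were pooled in 1 tube and gave 1 3′ library. The driver of the recombinase is not given in the sources used here, nor is it stated whether the recipients had separate donors, so p-values reach only the spread between these 4 samples. A 3′ count does not read the mutated base, so these counts do not check the genotype labels.

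Cells that divide copy their DNA in S phase and part the copies in M phase. Genes of replication are switched on before and during S phase, largely by E2F factors. Genes of mitosis come up later and are known to be held back in resting cells by the DREAM complex, which reads a short promoter element called CHR, often with nearby CCAAT boxes bound by NF-Y. In marrow, progenitors divide quickly, long-term stem cells rarely, and neutrophils stop dividing as they mature.

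The promoter letters are shown for 7 members chosen from those named below. Mcm6 carried the most E2F-like letters among the S members and Rrm2 was the S member whose level fell in the mutant libraries. The other 5 are G2/M genes with a difference between genotypes in at least 1 cell group or the smallest p-values in erythroid cells. Cenpa, Birc5 and Plk1 also differed between genotypes in a cell group and are not shown. Each stretch is 130 bases that end before the annotated start of the gene, written along the gene, from RefSeq on GRCm38.p6. Capitals mark the letters of an E2F-like motif (TTTGGCGC, TTTCGCGC, TTTCCCGC or TTTGCCGC), of CHR (TTTGAA or TTCGAA) or of CCAAT, on either strand, so that ATTGG and TTCAAA are matches on the other strand.
Mcm6 (chr1:128359706-128359835, minus strand): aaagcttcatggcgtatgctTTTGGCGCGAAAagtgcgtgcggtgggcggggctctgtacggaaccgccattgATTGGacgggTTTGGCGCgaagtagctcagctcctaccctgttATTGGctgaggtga
Rrm2 (chr12:24708111-24708240, plus strand): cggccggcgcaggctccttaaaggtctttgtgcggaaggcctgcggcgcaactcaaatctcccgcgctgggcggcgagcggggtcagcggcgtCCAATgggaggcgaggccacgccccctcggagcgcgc
Mki67 (chr7:135716380-135716509, minus strand): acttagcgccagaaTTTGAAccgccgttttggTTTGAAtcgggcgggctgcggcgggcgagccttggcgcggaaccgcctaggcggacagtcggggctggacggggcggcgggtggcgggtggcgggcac
Top2a (chr11:99024190-99024319, minus strand): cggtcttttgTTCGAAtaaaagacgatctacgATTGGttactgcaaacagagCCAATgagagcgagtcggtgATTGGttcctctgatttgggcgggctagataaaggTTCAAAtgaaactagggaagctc
Ube2c (chr2:164769768-164769897, plus strand): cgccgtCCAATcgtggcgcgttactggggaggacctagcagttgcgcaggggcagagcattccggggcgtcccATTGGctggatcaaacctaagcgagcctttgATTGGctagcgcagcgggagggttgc
Cdk1 (chr10:69352939-69353068, minus strand): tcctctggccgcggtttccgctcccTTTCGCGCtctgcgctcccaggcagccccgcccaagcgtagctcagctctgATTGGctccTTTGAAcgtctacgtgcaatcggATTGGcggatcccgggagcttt
Kpna2 (chr11:106999542-106999671, minus strand): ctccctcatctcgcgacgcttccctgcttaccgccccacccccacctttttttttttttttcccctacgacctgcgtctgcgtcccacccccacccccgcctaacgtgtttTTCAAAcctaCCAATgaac
In the whole 300-base windows, from 250 bases before to 50 bases after each start, the S and G2/M parts differed in these letters. Windows were found for 38 of the 43 members, 41 windows in all. Tpx2, Mcm4, Gins2, Ccna2 and Aurkb had none. An E2F-like match was present in 8 of 20 S windows (40%) and in 1 of 21 G2/M windows (4.76%), that of Cdk1. Among 32544 windows of all genes the share was 2.28%, and among 10597 windows of genes tested in granulocyte-monocyte progenitor-like cells it was 4.13%. CHR letters stood in 16 of 21 G2/M windows (76.2%) and in 2 of 20 S windows (10%), those of Mcm2 and Mcm7, against 19.1% of all windows. CCAAT was present in 18 of 21 G2/M windows (85.7%) and 10 of 20 S windows (50%), against 37.4% of all windows. All 16 G2/M windows with CHR letters also held CCAAT, a combination seen in 7.5% of all windows. In Mcm6, 2 of the 3 E2F-like matches overlap each other. Such a match describes the letters only.

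The libraries held 40364701 to 56353466 UMIs (unique molecular identifiers, each counting 1 captured RNA molecule), and 3505 to 4503 cells per library passed the filters. Idh1-WT 1 and Idh1-R132H 1 shared 345 cell barcodes, 8.98% of the cells of the smaller library, while the other pairs of libraries shared 13 to 33. Of these 345, 327 were barcodes of Idh1-WT 1 with a median of 577 UMIs beside 27151 in the other library. In all 337 such low copies were removed, of which 200 of those in Idh1-WT 1 would have been gated as granulocyte-monocyte progenitor-like. After 111 doublet calls were also removed, 15832 cells remained, of which 11352 passed a marker gate and 4480 (28.3%) did not. With the copies kept, the number of members called was the same (8), and the Idh1-WT mean share of granulocyte-monocyte progenitor-like cells with Mki67 or Top2a was 71.8% in place of 79.9%. Cells counted as Xist-carrying had a UMI of Xist, the RNA of the inactive X chromosome. They had no UMI of the Y chromosome genes Ddx3y, Eif2s3y, Kdm5d and Uty. Their share differed between libraries of 1 genotype. In erythroid progenitor-like cells it was 79.9% and 52.0% in Idh1-WT against 54.6% and 36.5% in Idh1-R132H.

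Each group is named "-like" because only marker genes define it. Among the 10 genes that stood highest in a group by fold, 3 to 7 were markers of its own set. Monocyte-like cells had the least clear identity. They had 3 own markers and 2 of the monocyte progenitor set, and clustering without cell cycle genes gave the same class to 18.2% of them. For monocyte progenitor-like cells the share was 33.1%, for megakaryocyte progenitor-like cells 59.7% (22.0% lay in stem clusters) and for erythroid progenitor-like cells 95.5%. No cell cycle gene was used to gate the cells.

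The 43 members gave 336257 UMIs of S genes and 370914 UMIs of G2/M genes, out of 170055178 UMIs in the cells used. Levels are given as UMIs per 1000000 UMIs of the summed group (CPM), and only within a gene or a summed part. The S part was highest in B precursor-like cells, with 3188 and 3479.9 CPM in Idh1-WT 1 and 2 and 4191 and 3542 in Idh1-R132H 1 and 2. It was lowest in neutrophil-like cells, with 532, 250.2, 532 and 323. The G2/M part was also highest in B precursor-like cells (7842, 7019, 5676 and 6989) and lowest in neutrophil-like cells (544, 279, 623 and 352). No neutrophil-like library reached the lowest B precursor-like library for either part. Erythroid and megakaryocyte progenitor-like cells lay close together in the S part, with 2109 to 2435 and 2188 to 2376 CPM. Their ranges overlapped, and those of lymphoid-primed progenitor-like cells (2066 to 2355) and monocyte progenitor-like cells (2208 to 2344) overlapped with both.

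**Figure D1:**
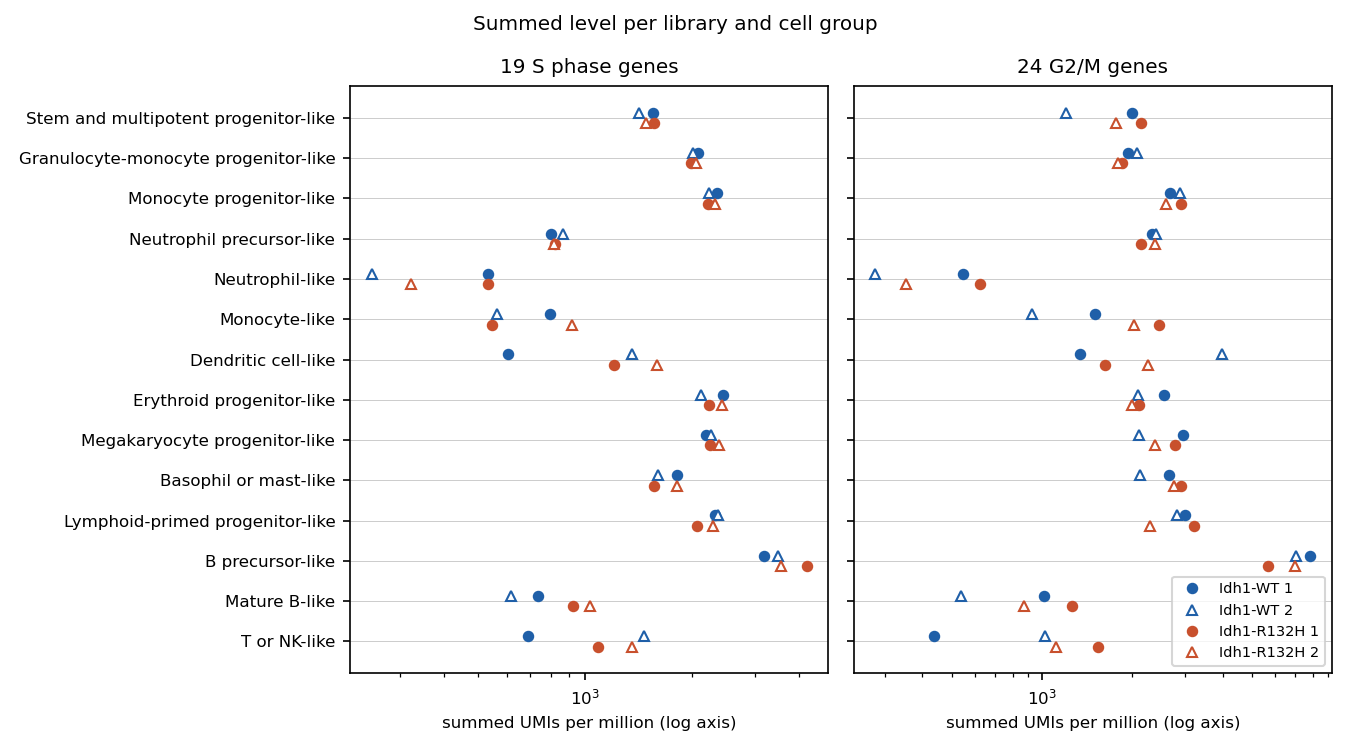
Summed level of the 19 S genes (left) and the 24 G2/M genes (right) in CPM on a log axis, 1 point per library, for the 14 cell groups. B precursor-like cells stood highest and neutrophil-like cells lowest in both parts, and neutrophil precursor-like cells were low for S genes but not for G2/M genes.

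The 2 parts did not go together along the neutrophil lineage. In granulocyte-monocyte progenitor-like cells, marked by Mpo and Elane, the S part stood at 2077, 2011, 1984 and 2049 CPM and the G2/M part at 1930.4, 2079, 1849.9 and 1791. In neutrophil precursor-like cells, marked by Camp and Ltf, the S part stood at 803, 865, 821 and 814, while the G2/M part stood at 2335, 2402, 2148 and 2377. By summed UMIs, all 4 precursor libraries were thus below all 4 progenitor libraries for S genes and above them for G2/M genes. The G2/M direction turned at equal depth, with each cell thinned at random to 2000 UMIs and shallower cells left out. The precursors then had means of 2.99, 2.85, 2.78 and 3.03 G2/M UMIs per cell, against 3.38, 3.91, 3.30 and 3.28 in the progenitors. S means stayed lower, at 1.12 to 1.27 against 3.93 to 4.21. The ratio of G2/M to S UMIs was 0.942 ± 0.0663 (SD over 4 libraries) in the progenitors and 2.81 ± 0.142 in the precursors. The precursors had the highest mean ratio of the 14 groups, and monocyte-like cells came next at 2.56 ± 1.32, with Idh1-R132H 1 alone at 4.505. The ranges of these 2 groups overlapped.

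The S genes were lower one and all. In neutrophil precursor-like cells all 19 S members were lower in all 4 libraries than in any of the progenitor libraries, with a median ratio of 0.324. Of the 10940 genes tested in the progenitors, 59.5% were lower in the same way, with a median ratio of 0.533. Pcna, the sliding clamp of the replication fork, averaged 197 CPM in the progenitors and 71.0 in the precursors. Mcm6, a subunit of the replicative helicase, went from 186 to 45.2. The smallest decrease was that of Rrm2, the regulated subunit of ribonucleotide reductase, from 168 to 142, a ratio of 0.843. Among the wider S genes, 51 of 58 were lower in this way, with a median ratio of 0.393.

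By summed UMIs, most G2/M members were higher than in the progenitors. Single genes were not compared at equal depth, where the G2/M part as a whole was lower per cell. Their median ratio was 1.12, 17 of 24 had a higher mean and 9 were higher in all 4 libraries, against 12.6% of all genes. Cenpf, a kinetochore protein, averaged 35.0 CPM in the progenitors and 74.2 in the precursors. Ube2c, the E2 enzyme that works with the anaphase-promoting complex, went from 227 to 408.0. Nusap1, which binds spindle microtubules, went from 67.9 to 106.6. Aurkb, a kinase of the chromosomal passenger complex, was lower, at 72.4 and 43.6. In the wider G2/M list the median ratio was 0.961.

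Neutrophil-like cells, marked by Retnlg and Cxcr2, had little of either part. Their median ratio to the progenitors was 0.165 for S members and 0.217 for G2/M members, and all 19 S and 23 of 24 G2/M members were lower in all 4 libraries than in any progenitor library, as were 53.1% of all genes. The median ratio over all genes was 0.460. The RNA of empty droplets would by itself give 26.7% to 99.0% of their S UMIs and 27.4% to 94.8% of their G2/M UMIs, by library. The same estimate was 2.01% to 7.40% in neutrophil precursor-like cells. Levels in neutrophil-like cells therefore cannot be told apart from free RNA in Idh1-WT 2.

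B precursor-like cells, marked by Vpreb1 and Igll1, had the highest mean of the 14 groups for all 24 G2/M members and 12 of 19 S members. All 24 G2/M members were higher than in the granulocyte-monocyte progenitors in all 4 libraries, with a median ratio of 3.54, against 16.8% of all genes. Ube2c averaged 1007 CPM there and Rrm2 545.5. Megakaryocyte progenitor-like cells, marked by Pf4 and Itga2b, had the highest mean for Mcm3, Mcm6, Tyms, Ung and Chaf1b. B precursor-like cells were close behind for Mcm3 (145.7 against 144.6 CPM), Mcm6 (214.7 against 206.9) and Tyms (204.1 against 199.1). Stem and multipotent progenitor-like cells, marked by Hlf and Procr, had a lower mean than the granulocyte-monocyte progenitors for 18 of 19 S members, with a median ratio of 0.692. Of these, 16 were lower in all 4 libraries than in any progenitor library, as were 20.1% of all genes. Rrm2 showed the largest gap there, at 47.1 against 168. Chaf1b, a subunit of the chromatin assembly factor, was the S member with a higher mean, at 62.6 in the stem group and 36.9 in the progenitors. The G2/M part of the stem group had a median ratio of 0.922.

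**Figure D2:**
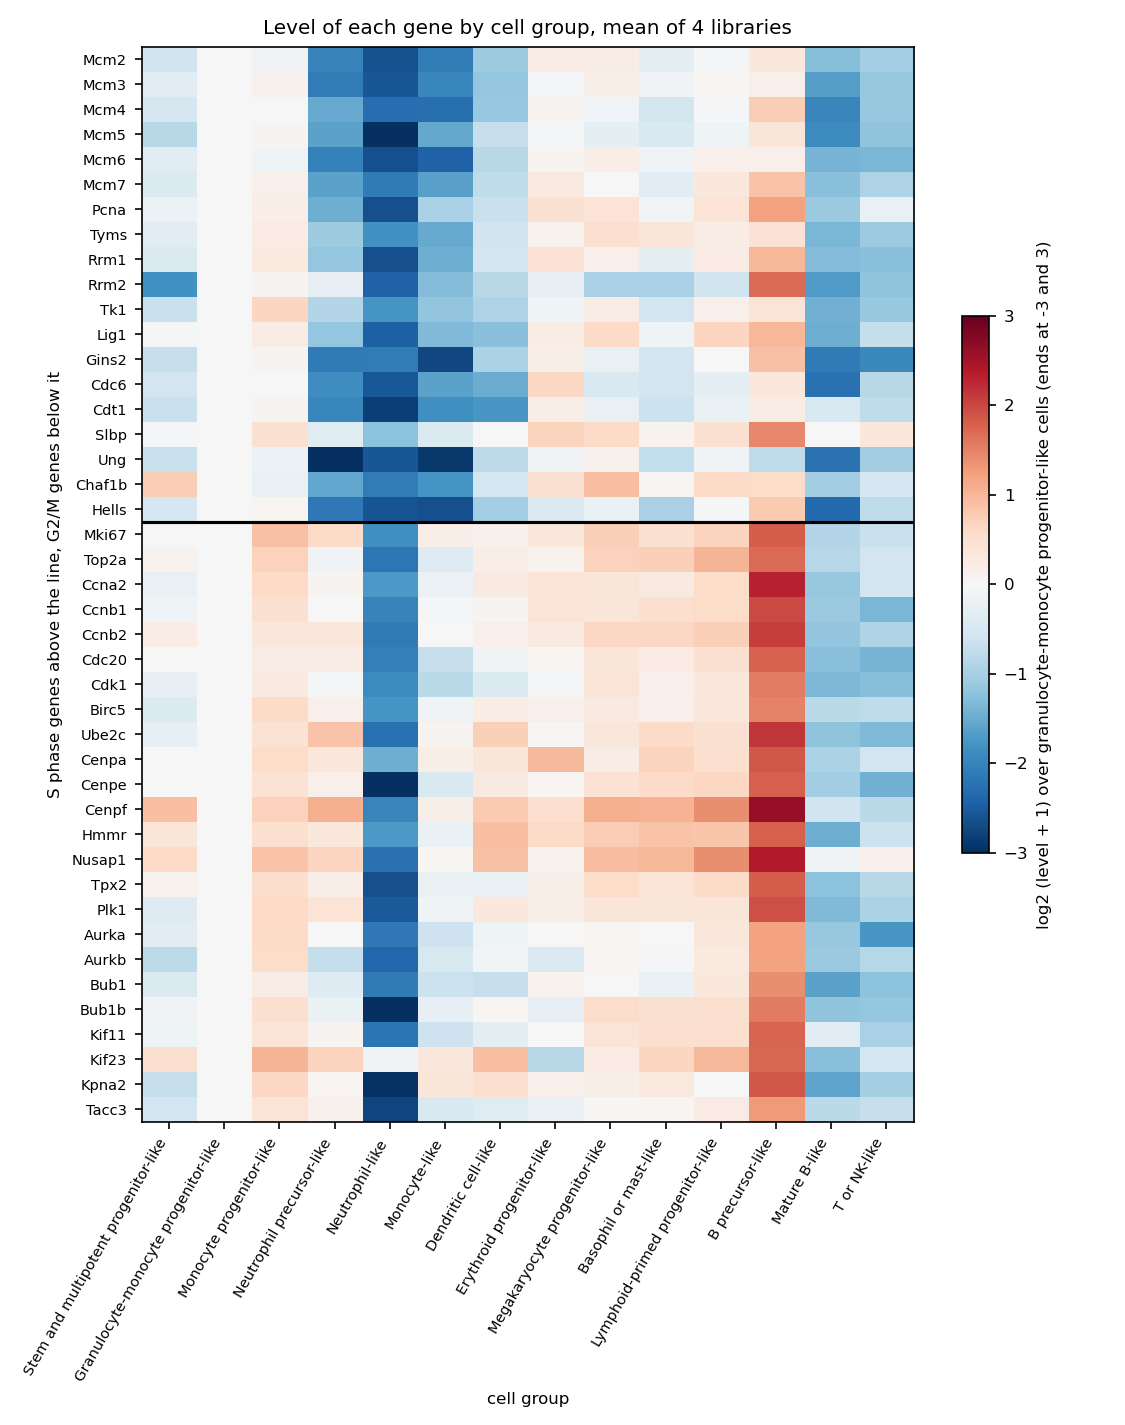
Level of each of the 43 members in each cell group relative to its level in granulocyte-monocyte progenitor-like cells, as log2 of the ratio of (level + 1), with means over 4 libraries and the colour ending at -3 and 3. S genes stand above the line and G2/M genes below it. Neutrophil precursor-like cells are low for the 19 S genes, and B precursor-like cells are high for the 24 G2/M genes.

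The share of cells with at least 1 UMI of Mki67 or Top2a followed the same order only in part, and the groups differ in depth as well. Mki67 encodes the proliferation marker Ki-67 and Top2a a topoisomerase that untangles chromosomes before they separate. The share had its highest mean in granulocyte-monocyte progenitor-like cells, where it was 78.2% and 81.6% in Idh1-WT against 78.7% and 80.7% in Idh1-R132H, at a median of 19943.5 to 23110 UMIs per cell. In B precursor-like cells it overlapped with these values, with Idh1-R132H 1 above each of them. In stem and multipotent progenitor-like cells it was 35.6%, 26.8%, 39.1% and 33.2%. Neutrophil precursor-like cells had 31.9%, 30.7%, 34.1% and 36.5%. In neutrophil-like cells, taken by their markers as no longer dividing, it was 3.82%, 2.51%, 4.46% and 5.58% at 1491 to 1554.5 UMIs per cell. This serves as a background only for cells of similar depth. Mature B-like cells had 9.52%, 7.69%, 9.26% and 4.21% at 1633 to 1766 UMIs per cell.

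When each cell was thinned to 2000 UMIs, the order changed. B precursor-like cells were then highest (78.3%, 79.4%, 64.7% and 75.0%), followed by lymphoid-primed progenitor-like cells (40.9%, 41.0%, 40% and 33.1%) and monocyte progenitor-like cells (38.5%, 37.9%, 40.3% and 35.7%). The granulocyte-monocyte progenitors then stood at 25.1%, 28.1%, 24.4% and 29.6%. They overlapped with erythroid progenitor-like cells (25.9%, 22.8%, 29.0% and 25.0%). Those gated as neutrophil precursor-like stood at 21.7%, 18.5%, 18.5% and 21.7%, and the stem group 19.2%, 14.9%, 22.0% and 18.2%. The neutrophil-like background was 1.64% to 10%, over 53 to 78 cells per library. Mature B-like cells stood at 12.9%, 16.7%, 14.3% and 10.5%, above each neutrophil-like library, over 19 to 35 cells per library, and the exact 95% binomial intervals of these 2 groups overlapped. In B precursor-like cells, 17 cells of Idh1-R132H 1 were deep enough.

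Between genotypes, the unthinned share did not overlap in 5 of 14 groups. It was higher in both Idh1-R132H libraries in megakaryocyte progenitor-like, basophil or mast-like, neutrophil precursor-like, monocyte-like and neutrophil-like cells. In basophil or mast-like cells the values were 53.0% and 46.9% in Idh1-WT against 58.5% and 63.6% in Idh1-R132H, a difference of 11.1 points. The exact two-sided permutation test over 2 against 2 libraries cannot give less than 0.333, the value it gave in each of these 5 groups. Full separation in either direction comes up in that share of arrangements of the libraries, and 5 of 14 groups is close to it. After thinning, 1 of the 5 remained apart, that of monocyte-like cells, with 12.96% and 10.7% against 18.7% and 16.9%. Thinning also set apart lymphoid-primed progenitor- and B precursor-like cells, both with lower Idh1-R132H values. In B precursor-like cells this turned the direction. The unthinned shares were 67.7% and 70.5% against 81.8% and 66.7%, a difference of 5.14 points with overlap, and the thinned difference was -8.98 points after 22.7% to 25.9% of the cells of each library had been left out.

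**Figure D3:**
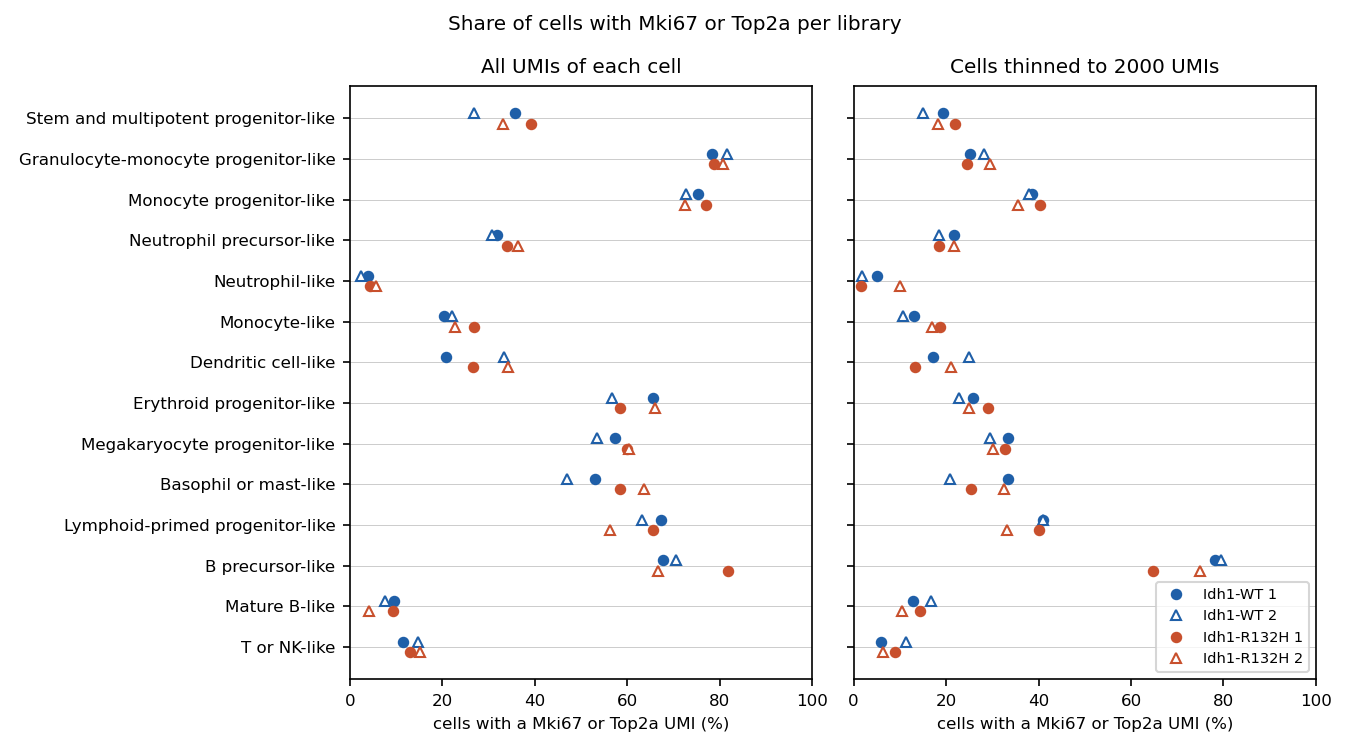
Share of cells with a Mki67 or Top2a UMI in percent, 1 point per library, for the 14 cell groups, in all cells and after thinning each cell to 2000 UMIs. Granulocyte-monocyte progenitor-like cells stand near 79.9% before thinning and at 24.4% to 29.6% after it, and B precursor-like cells stand highest after thinning.

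Genotype was then tested gene by gene. UMIs were summed per library and group and tested with edgeR's quasi-likelihood test, with Benjamini-Hochberg adjustment over all genes tested in that group and a threshold of 0.05. Over the 14 groups, 8 gene and group pairs among the members passed: Mki67 in the stem group, Rrm2 in granulocyte-monocyte progenitor- and lymphoid-primed progenitor-like cells, 4 G2/M genes in monocyte-like cells and Cenpa in B precursor-like cells. No call held with every library left out in turn, and the values without single libraries stand beside each call. The summed parts carry no test.

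**Figure D4:**
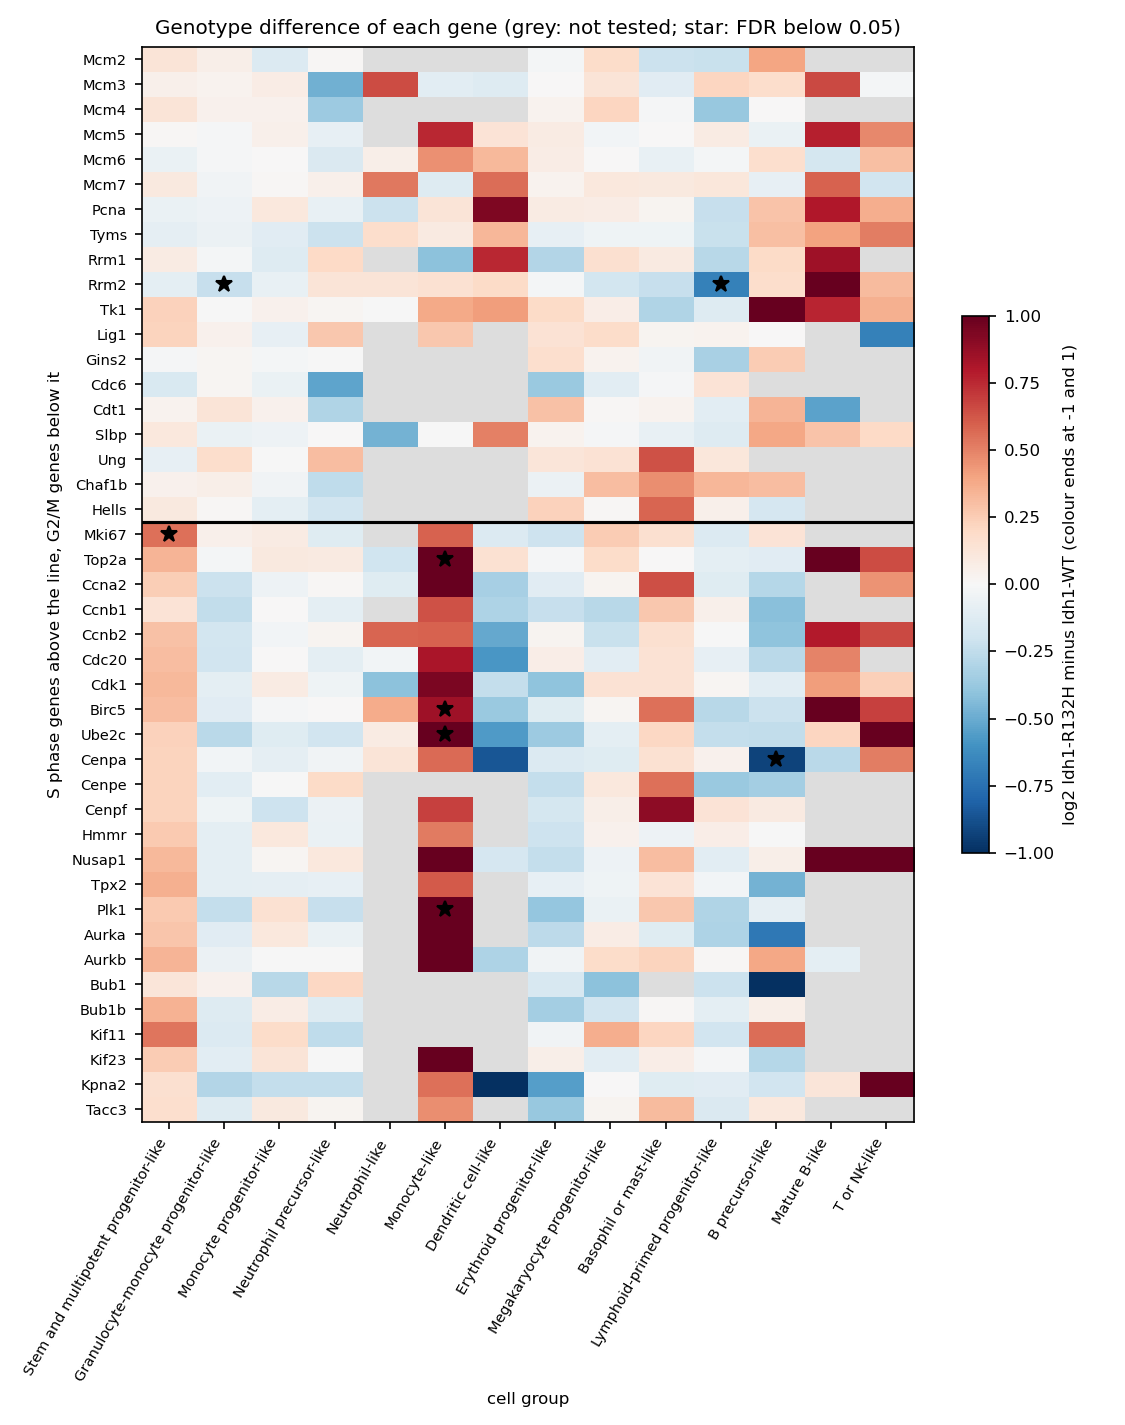
Log2 difference between Idh1-R132H and Idh1-WT for each of the 43 members (S genes above the line, G2/M genes below it) in each cell group, with the colour ending at -1 and 1. Grey marks pairs not tested and a star marks the 8 pairs with an adjusted p below 0.05 by edgeR's quasi-likelihood test, 4 of them in monocyte-like cells.

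In stem and multipotent progenitor-like cells the G2/M part stood at 1999 and 1208 CPM in Idh1-WT 1 and 2 and at 2134 and 1771 in Idh1-R132H 1 and 2. Idh1-WT 2 was far below the other 3 libraries, and the genotypes overlapped. All 24 G2/M members had a higher mean in Idh1-R132H, with a median log2 difference of 0.27, against 0.00 over the 10680 genes tested. The S part did not move with it (1546, 1419.8, 1561 and 1481), with 12 of 19 members higher and a median of 0.04. Mki67 stood at 46.6 and 36.5 CPM in Idh1-WT against 66.5 and 55.3 in Idh1-R132H. The genotypes did not overlap. It rose by 0.55 on the log2 scale (SE 0.12, edgeR adjusted p 0.0269) and was the only member of 43 to pass, while 0.197% of all genes passed in this group, 0.14% of all genes as rises.

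The other G2/M members of the stem group did not pass. Kif11, the kinesin that pushes spindle poles apart, stood at 17.1 and 10.6 against 21.8 and 18.3 (log2 difference 0.53, SE 0.20, edgeR adjusted p 0.479). Top2a stood at 163 and 117 against 199 and 157, with overlap. Only 2 G2/M members lay apart by library, both higher, while 17.4% of all genes did so in that direction. Among S members, Lig1, the ligase that seals replicated strands, had the smallest p (81.9 and 90.5 against 103 and 98.1, log2 difference 0.22). In the wider G2/M list, 65 of 69 tested genes were higher, with a median of 0.27 and none called. Its smallest p belonged to Sgol1, the guardian of sister cohesion, at 23.4 and 16.6 against 33.1 and 28.8 (log2 difference 0.62, edgeR adjusted p 0.0877). The call of Mki67 depended on single libraries. Without Idh1-WT 2 the adjusted p was 0.501, without Idh1-R132H 1 0.983 and without Idh1-R132H 2 1.000, whereas without Idh1-WT 1 20 members passed. With DESeq2, no member passed, and with groups made by clustering the log2 difference of Mki67 was 0.23.

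In granulocyte-monocyte progenitor-like cells the G2/M part lay in the other direction. It stood at 1930.4 and 2079 CPM in Idh1-WT against 1849.9 and 1791 in Idh1-R132H, a log2 difference of -0.14 with both mutant libraries below. Of the 24 G2/M members, 22 were lower (median -0.11, against 0.01 over 10940 genes) and 13 were lower in both mutant libraries than in both others, while 20.5% of all genes were so. Cyclin B1 (Ccnb1), the partner of Cdk1 at mitotic entry, stood at 85.7 and 90.9 against 77.3 and 71.5 (log2 difference -0.25, SE 0.06, edgeR adjusted p 0.0776). Cdc20, which activates the anaphase-promoting complex, stood at 105 and 117 against 97.0 and 96.7 (-0.19, adjusted p 0.133). Ccnb2 and Ccna2, the other mitotic cyclins, differed by -0.18 and -0.22 with adjusted p 0.135 and 0.136 by edgeR. None of the 24 passed. Mki67 (49.0 and 50.1 against 51.2 and 51.5) lay the other way, higher in both mutant libraries, as 21.6% of all genes were. Its log2 difference was 0.05 (SE 0.07). Top2a (142 and 154 against 142 and 149.8) overlapped between genotypes. In the wider G2/M list 55 of 70 genes were lower, with a median of -0.11, and Tubb4b, a tubulin, had the smallest p (358 and 361 against 318 and 326, edgeR adjusted p 0.0777).

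Among the S members of these progenitors, Rrm2 fell. It stood at 186 and 177 CPM in Idh1-WT against 152 and 157 in Idh1-R132H, without overlap. The log2 difference was -0.23 (SE 0.05, edgeR adjusted p 0.0175), and 0.512% of all genes passed in either direction, 0.384% as falls. Its partner subunit had no such call, and the S part as a whole stood at 2077, 2011, 1984 and 2049. Ung, which removes uracil from DNA, lay the other way (51.3 and 49.1 against 56.2 and 57.5, log2 difference 0.18, adjusted p 0.301). Rrm2 was called without Idh1-WT 2 (edgeR adjusted p 0.00378) and not without Idh1-WT 1 (0.0788), Idh1-R132H 1 (0.138) or Idh1-R132H 2 (0.0616). DESeq2 also called it.

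Rrm2 fell in lymphoid-primed progenitor-like cells too, a group marked by Dntt and Flt3. The values were 132.2 and 142 CPM in Idh1-WT against 71.1 and 97.6 in Idh1-R132H. The mutant libraries were both lower, with a log2 difference of -0.68 (SE 0.14, edgeR adjusted p 0.0432), in a group in which 0.103% of all genes passed, 0.0517% as falls. Without Idh1-R132H 1 the difference was -0.48 with an adjusted p of 0.285, and without any other single library it passed. DESeq2 did not call it. The S part of this group was lower in both mutant libraries (2318 and 2355 against 2066 and 2280.2, log2 difference -0.10), with 8 of 19 members apart as lower against 17.2% of all genes. With cells thinned to 2000 UMIs, the S means were 3.87 and 4.58 UMIs per cell against 4.10 and 4.13, with overlap. In erythroid progenitor-like cells Rrm2, a value looked up after its calls were seen, stood at 165 and 119 against 128 and 152, with overlap.

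In monocyte-like cells, marked by Fn1 and Ccr2 and made up of 59 to 92 cells per library, the G2/M part was higher in both mutant libraries. It stood at 1507 and 924 CPM in Idh1-WT against 2458 and 2032 in Idh1-R132H, a log2 difference of 0.89. The S part overlapped (794 and 565 against 546 and 919). All 20 G2/M members tested were higher, with a median of 0.83 against 0.00 over 3880 genes, and 17 of the 20 lay apart, while 18.1% of all genes were higher in this way. The filter on low counts left 31 of the 43 members. Of these, 4 rose, while 0.515% of all genes passed, 0.206% as rises. That filter keeps a gene with enough counts in the libraries of 1 genotype alone. A G2/M member can thus enter by being high in Idh1-R132H only. The 20 of 20 and the 17 apart may in part reflect this and serve as description only.

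Top2a stood at 86.8 and 44.0 CPM against 188 and 131 (log2 difference 1.25, SE 0.27, edgeR adjusted p 0.016). Ube2c stood at 199 and 103 against 379 and 277 (1.09, SE 0.23, adjusted p 0.0299). Birc5, the survivin subunit of the chromosomal passenger complex, stood at 174 and 110.0 against 293 and 225 (0.85, SE 0.20, adjusted p 0.0212). Plk1, the polo-like kinase of mitosis, stood at 16.1 and 14.7 against 62.0 and 49.6 (1.83, SE 0.48, adjusted p 0.0488). Its values came from 5 and 4 against 25 and 22 UMIs, so it passed the filter through the Idh1-R132H libraries. In all 4 genes both mutant libraries lay above both others, and Idh1-WT 2 was the lowest library. Of the wider G2/M list, Hmgb2, a chromatin protein, also rose (1324 and 1500 against 2106 and 1776, log2 difference 0.46, edgeR adjusted p 0.016).

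These monocyte-like calls depended on the libraries and on the gate. Without Idh1-WT 2 the edgeR adjusted p was 0.963 for Top2a, 0.966 for Birc5 and 0.713 for Ube2c, and without Idh1-R132H 1 it was 0.266, 0.466 and 0.0817. Plk1 passed with no library left out, at 0.149 to 0.779. With DESeq2, none of the 4 passed. When cells were gated by the highest marker score with no margin to the second, the summed difference was 0.12 and no member passed. Gated monocyte-like cells had a median z-score of 2.59 for their own markers and 2.01 for those of monocyte progenitors, a group with more G2/M RNA (2585 to 2910.2 CPM), and the part of this in the difference was not tested.

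In B precursor-like cells, the group with the highest levels and with 22 to 44 cells per library, the 2 parts lay in opposite directions. The S part stood at 3188 and 3479.9 in Idh1-WT against 4191 and 3542 in Idh1-R132H (log2 difference 0.21), and the G2/M part at 7842 and 7019 against 5676 and 6989 (-0.23). The genotypes did not overlap in either, but Idh1-R132H 2 was close to Idh1-WT 2 in both. Cenpa, the histone H3 variant of centromeres, stood at 766 and 584 against 326 and 382. It fell by 0.93 on the log2 scale (SE 0.17, edgeR adjusted p 0.00671), as 0.301% of all genes did, 0.735% passing in either direction. Hmgb2 fell as well (5401 and 4813 against 3834 and 3898, log2 difference -0.41, edgeR adjusted p 0.00719). Cenpa was called without Idh1-R132H 2 (adjusted p 0.000576) but not without Idh1-WT 1 (0.106), Idh1-WT 2 (0.729) or Idh1-R132H 1 (0.189). DESeq2 called it.

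In erythroid progenitor-like cells, marked by Klf1 and Car1, no member passed edgeR's test, and 2 of 8129 genes did (0.0246%). DESeq2 called none of the members, and 6 of 43 had an unadjusted p below 0.05, as had 397 of all genes. The 2 parts lay differently. The S part stood at 2435 and 2109 CPM in Idh1-WT against 2222 and 2430.2 in Idh1-R132H, with 13 of 19 members higher and a median log2 difference of 0.03. The G2/M part stood at 2550.1 and 2095 against 2103 and 2001, with 21 of 24 lower and a median of -0.19. Both sums overlapped between genotypes. Without Idh1-WT 1 the G2/M difference was -0.03 and without Idh1-WT 2 it was -0.31, beside -0.18 with all 4 libraries.

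Kpna2, an importin that carries proteins into the nucleus, had the smallest p of these erythroid members. It stood at 133 and 144 CPM in Idh1-WT against 96.6 and 91.5 in Idh1-R132H, without overlap (log2 difference -0.55, SE 0.12, edgeR adjusted p 0.0744). Cdk1, the kinase that drives mitotic entry, stood at 192 and 153 against 131.997 and 130.2 (-0.41, SE 0.11, adjusted p 0.57). Ube2c stood at 273 and 246 against 229 and 180.5 (-0.36, adjusted p 0.57), and Tacc3, a spindle protein, at 66.3 and 57.1 against 45.2 and 49.8 (-0.38). Of the 24 G2/M members, 6 were lower in both mutant libraries, against 16.1% of all genes. Kpna2 passed without Idh1-WT 1 (edgeR adjusted p 0.0111) or Idh1-WT 2 (0.0266), with groups made by clustering (0.00375) and with a doubled gate margin (0.000187). It did not pass without Idh1-R132H 1 (0.103) or Idh1-R132H 2 (0.431).

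The S members of erythroid cells had smaller differences. Rrm1, the large subunit of ribonucleotide reductase, stood at 164 and 124 against 106 and 129.8, with overlap (log2 difference -0.29, SE 0.13). Cdc6, which loads the helicase at origins, was lower in both mutant libraries (48.4 and 42.7 against 29.3 and 40.01). Cdt1, its partner in loading, stood at 62.4 and 49.1 against 58.1 and 77.9, and Hells, a chromatin remodeller, at 53.8 and 45.9 against 60.5 and 57.9. All 4 had an edgeR adjusted p of 0.999. In the wider lists, 34 of 56 S genes were higher (median 0.05) and 43 of 68 G2/M genes lower (median -0.07), with none called. Dscc1, a clamp loader subunit, and Gmnn, the inhibitor of Cdt1, were higher among wider S genes (log2 differences 0.66 and 0.28). Smc4, a condensin subunit, was lower among wider G2/M genes (264 and 231 against 224 and 177, log2 difference -0.32, adjusted p 0.767).

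In megakaryocyte progenitor-like cells no member passed by edgeR or by DESeq2, 2 of 43 had an unadjusted p below 0.05, as had 528 of 8624 genes, and 0.058% of all genes passed. The S part stood at 2188 and 2257 in Idh1-WT against 2244 and 2376 in Idh1-R132H, with 14 of 19 members higher and a median log2 difference of 0.07. The G2/M part stood at 2947 and 2105 against 2782 and 2381, with 13 of 24 higher and a median of 0.01. Idh1-WT 2 was the lowest and Idh1-WT 1 the highest library in the G2/M part, so that the difference was 0.29 without Idh1-WT 1, -0.19 without Idh1-WT 2 and 0.03 with all.

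Mki67 stood at 78.7 and 73.6 against 88.9 and 93.0 CPM in these megakaryocyte cells, without overlap (log2 difference 0.25, SE 0.12, edgeR adjusted p 0.793). Top2a stood at 242 and 204 against 252 and 257, also apart (0.18, SE 0.09, adjusted p 0.822). Chaf1b stood at 63.8 and 60.6 against 70.9 and 82.6 (0.31, SE 0.13, adjusted p 0.742). Ccnb1 was lower in mean, at 127 and 102 against 112 and 82.0, with overlap (-0.28). Blm, a helicase of the wider S list, stood at 14.1 and 11.8 against 22.9 and 23.5 (0.82, adjusted p 0.464), and Racgap1, which organises the division furrow, at 67.0 and 58.1 against 50.9 and 39.7 (-0.51, adjusted p 0.464). The share of cells with Mki67 or Top2a was 57.4% and 53.4% in Idh1-WT against 59.9% and 60.3% in Idh1-R132H. That difference of 4.69 points was 9.60 points with groups made by clustering and -0.017 points after thinning to 2000 UMIs. In erythroid progenitor-like cells the share was 65.5% and 56.8% against 58.3% and 66.0%, a difference of 1.05 points with overlap.

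The difference between the lineages was tested as the erythroid effect of genotype minus the megakaryocyte effect, with the library as a block, since all 4 libraries give cells to both lineages. No member passed edgeR's test (smallest adjusted p 0.116), 5 of 43 had an unadjusted p below 0.05, and 6 of 9084 genes passed (0.0661%), 481 having an unadjusted p below 0.05. Without the library block no member passed either. All 5 members were more negative in erythroid cells. Of the G2/M members, 19 of 24 were more negative there, with a median of -0.21. The S members were split, with 10 of 19 negative and a median of -0.02, as were all genes, with 4651 of 9084 negative and a median of -0.01. In sign, 13 of 24 G2/M members were lower in erythroid and higher in megakaryocyte cells, 3 were the reverse, 8 were lower in both and 0 were higher in both. Of the S members, 11 of 19 were higher in both lineages and 3 were lower in erythroid and higher in megakaryocyte cells. These signs come from summed UMIs. With cells thinned to 2000 UMIs, erythroid cells had 4.01 and 3.45 G2/M UMIs per cell in Idh1-WT against 3.86 and 3.74 in Idh1-R132H. Megakaryocyte cells had 5.11 and 3.42 against 4.55 and 3.82. Both overlapped, and neither kept the direction of the summed G2/M part in its mean.

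Cdk1 had the smallest p of this comparison. In megakaryocyte cells it stood at 221 and 166 CPM in Idh1-WT against 238 and 197 in Idh1-R132H, with overlap, beside the lower mutant values given for erythroid cells. The difference of effects was -0.55 (SE 0.13, edgeR adjusted p 0.116). Kpna2 stood at 135 and 97.1 against 133 and 107 in megakaryocyte cells, and its difference of effects was -0.55 (SE 0.16, adjusted p 0.534). Rrm1, at 105 and 95.9 against 115 and 110.3 in megakaryocyte cells, differed by -0.46 (SE 0.15, adjusted p 0.728). Mki67 differed by -0.47 (SE 0.18, adjusted p 0.828) and Tacc3 by -0.42 (SE 0.20, adjusted p 0.923). With groups made by clustering Cdk1 passed (edgeR adjusted p 0.0345), and then 16 of 19 S members were also negative, with a median of -0.20. Without Idh1-WT 1, Ube2c (0.0014) and Kpna2 (0.00196) passed and the S median was 0.14, whereas without any other single library no member passed.

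**Figure D5:**
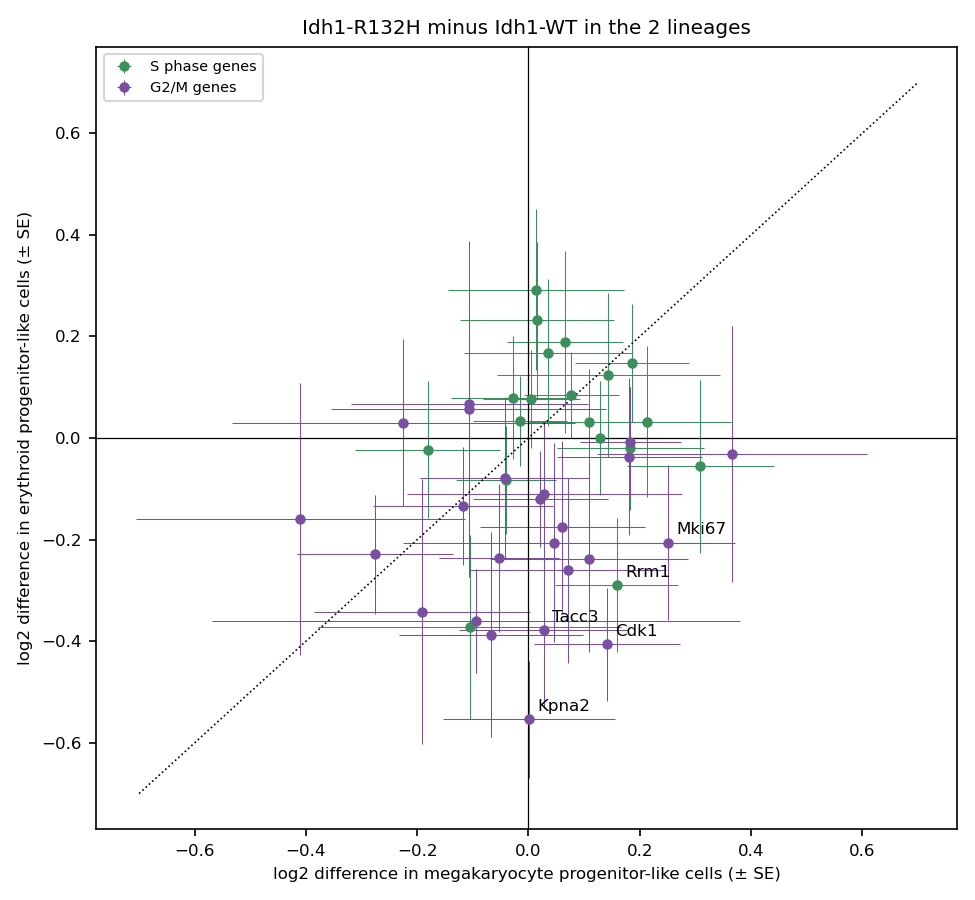
Log2 difference between Idh1-R132H and Idh1-WT of each member in erythroid progenitor-like cells (vertical axis) against megakaryocyte progenitor-like cells (horizontal axis), with standard errors as bars and the line of equal differences dotted. The 5 named genes had an unadjusted p below 0.05 for the difference between lineages and lie below the dotted line, and 13 of 24 G2/M genes lie in the lower right field.

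The remaining groups had no member past the threshold. In basophil or mast-like cells, marked by Prss34 and Mcpt8, the G2/M part was higher in both mutant libraries (2661 and 2116 against 2918 and 2747, log2 difference 0.25). There 20 of 23 G2/M members tested were higher, and 11 lay apart, against 16.7% of all genes, while 0.0% of all genes passed edgeR's test. An unadjusted p below 0.05 was found for 4 of 42 members tested, and for 238 of 5518 genes. Birc5, chosen after its values were seen, stood at 221 and 166 against 319.7 and 262 (0.55, edgeR adjusted p 0.982). In mature B-like cells the S part was higher (737 and 617 against 924 and 1028, 0.53), as was the G2/M part of T or NK-like cells (436 and 1024 against 1537 and 1113, 0.86), but their filters left 21 and 19 of the 43 members and 0 passed, as did 0.0% of all genes. Free RNA alone would give 9.17% to 38.0% of the members' UMIs in mature B-like cells. Top2a stood at 42.7 and 56.4 against 115 and 107 in mature B-like cells (1.17, edgeR adjusted p 0.416), from 11 and 14 against 36 and 22 UMIs. The share of these cells with a Top2a UMI lay the other way, without overlap. Its mean was 7.18% in Idh1-WT and 4.88% in Idh1-R132H.

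In monocyte progenitor-like cells the sums overlapped for S genes (2344 and 2224 against 2208 and 2323) and for G2/M genes (2683 and 2876 against 2910.2 and 2585). Neither direction prevailed, with 8 of 19 S and 13 of 24 G2/M members higher and 0 with an unadjusted p below 0.05, as 475 of all genes had, while 0.0542% of all genes passed. Mki67 and Top2a differed by 0.08 and 0.10 there. Neutrophil precursor-like cells showed 8 of 19 and 8 of 24 higher, with medians of -0.07 and -0.05 beside 0.083% of all genes passed, and Mki67 at 79.5 and 78.4 against 58.9 and 84.3. In dendritic cell-like cells, with 29 to 38 cells per library and 0.293% of all genes passed, 9 of 10 S members tested were higher and 12 of 13 G2/M members lower, but Idh1-WT 2 alone stood at 3986 in the G2/M part, against 1344, 1622 and 2256 in the other 3. Neutrophil-like cells, with 16 members tested, had 5 of 8 S and 4 of 8 G2/M members higher, and 0.0% of all genes passed. DESeq2 called no member in any of these 7 groups. Over all 14 groups, Idh1-WT 2 was the lowest library for the G2/M part in 6.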

How the data were processed

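Raw UMI counts per gene and barcode were deposited by the authors for 4 libraries, with all barcodes included. Cell Ranger 4.0.0, Seurat and the build GRCm38/mm10 are named in the submitters' processing notes. The members and lists were chosen with earlier results of these data known. No column of another sample was present.

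Cells were barcodes with 500 or more UMIs, 200 or more genes and a mitochondrial share up to 10%. A shared barcode with 10 times fewer UMIs than its copy in another library was removed, as were doublet calls (0.682% of cells, by Scrublet in scanpy 1.11.5). Cells were gated by the mean z-score of fixed markers (at least 0.5, and 0.25 above the next set), and a group needed 20 cells in every library. Median UMIs per cell by library were 7228 to 8707.

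Counts were summed per library and group and tested with edgeR 4.0.16 (R 4.3.3; quasi-likelihood, TMM, filterByExpr), with Benjamini-Hochberg adjustment over all genes tested in the group and a threshold of 0.05. The filter asks for enough counts in as many libraries as 1 genotype has, so a gene can enter through 1 genotype alone. Levels were divided by TMM-scaled totals. DESeq2 1.42.0, other scalings, filters, gates, Leiden clusters made without cell cycle genes, subtraction of the profile of barcodes with at most 50 UMIs, and leaving out each library were alternatives. The tests were checked on simulated counts. Intervals and shares cover counting error only. The text names called members; in erythroid, megakaryocyte, granulocyte-monocyte progenitor-like and stem cells the 4 S and 4 G2/M members with the smallest p and 3 genes of each wider list (58 S and 70 G2/M genes); and Mki67 and Top2a. Promoter windows follow RefSeq starts on GRCm38.p6, and each printed stretch ends before both the RefSeq and the GENCODE start.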

Additional observations from a re-analysis of the deposited data

Results flagged for a closer look

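The summed parts of some cell groups lay apart between genotypes in opposite directions, with every Idh1-R132H library on 1 side of every Idh1-WT library. These were 8 of 28 sums (28.6%), while 30.7% to 42.2% of all genes tested in a group lay apart in either direction, so sums lay apart no more often than single genes. The difference between these groups was not tested. The summed S level was higher in Idh1-R132H by a log2 difference of 0.21 in B precursor-like cells and 0.53 in mature B-like cells, and differed by -0.10 in lymphoid-primed progenitor-like cells. The summed G2/M level was higher by 0.89 in monocyte-like cells, 0.25 in basophil or mast-like cells and 0.86 in T or NK-like cells, and differed by -0.14 in granulocyte-monocyte progenitor-like cells and by -0.23 in B precursor-like cells.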

How the results depend on the processing

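Of 14 groups, 8 members and groups passed edgeR's test. The number was 15 with no filter on low counts, 2 with DESeq2, 4 with no margin between marker scores, 3 with groups made by clustering (13 groups), 2 in Xist-carrying cells only (11 groups), 4 with top-scoring doublets removed and 2 to 36 without single libraries (2 without Idh1-R132H 1, 36 without Idh1-WT 1). With the replicate number as a block it was 23, 7 of them in the stem group. The labels give the numbers no shared source. Deviations of same-numbered libraries had correlations of -0.10 to 0.25, over 0.1 in 3 of 14 groups, and replicate 1 was above replicate 2 in the G2/M sum of both genotypes in 8 of 14 groups and below it in 2. Whether the numbers pair the libraries is therefore not settled. The sums that did not overlap, 8 of 28, were 15 to 19 without single libraries, where fewer libraries make overlap rarer. The 5 shares that did not overlap were 3 after thinning, 3 with top-scoring doublets removed and 8 to 12 without single libraries. In erythroid cells the S difference ranged from -0.063 to 0.14 without single libraries, the G2/M difference from -0.31 to -0.028 and the share difference from -3.29 to 5.38 points. In megakaryocyte cells the S difference of 0.06 was 0.17 with a doubled margin, 0.17 with clusters, -0.037 in Xist-carrying cells and 0.016 to 0.092 without single libraries. The G2/M difference there ranged from -0.19 to 0.29, and the share difference was -0.017 points after thinning, 9.60 with clusters and 2.68 to 6.71 without single libraries. Between the lineages 0 members passed, against 1 with clusters and 0 to 2 without single libraries. Without single libraries, the G2/M difference ranged from -0.03 to 0.69 in the stem group, 0.58 to 1.28 in monocyte-like and -0.38 to -0.09 in B precursor-like cells. The cause of these shifts was not tested. The few cells of B precursor-, dendritic cell- and monocyte-like groups and the shallow neutrophil-like cells limit what their sums show.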
